A study of Arabidopsis thaliana with 18 samples.

Results

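Seedlings treated with DPAM-1 were set against seedlings treated with coronatine, both under salt. The comparison took 6 of the 18 RNA libraries of the series, 3 from each group, and all 14229 genes of the deposited table of read counts. The plants were Arabidopsis thaliana Col-0, the standard laboratory accession, grown as whole seedlings in liquid MS medium. Both groups carried the same dose of 5 µM of their compound, added 4 days after germination. Both then had 100 mM NaCl in the medium from 16 h after the compound, and both were harvested 2 h after the NaCl. A further 3 libraries of seedlings with 1% DMSO and 100 mM NaCl served as background level. For the test of whether the difference changed with salt, 3 libraries with 5 µM DPAM-1 and 3 with 5 µM coronatine, all without NaCl, were used. The labels give no harvest time for these libraries without NaCl, so a difference in time cannot be told apart from NaCl. The labels name no solvent for the compound groups, and they do not say that the numbered libraries came from separate cultures. The p-values therefore measure the spread between these libraries, which may be technical.

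Coronatine is a toxin of Pseudomonas syringae that takes the place of the bioactive jasmonate of plants, jasmonoyl-isoleucine. It binds the receptor of COI1 and JAZ proteins, JAZ repressors are destroyed, and MYC transcription factors switch on defence, storage and secondary metabolism genes while growth slows. DPAM-1 is known here by its code name alone. By its title the series concerns brassinosteroid-related genes, brassinosteroids being the steroid hormones that drive cell expansion, and sensitivity to salt. The question of the comparison is which genes the compounds set at different levels when the seedlings also face salt.

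A gene is called higher or lower when DPAM-1 with NaCl differs from coronatine with NaCl at an adjusted p under 0.05. The adjusted p comes from the quasi-likelihood test of edgeR after Benjamini-Hochberg correction across the 14229 genes. Levels are CPM (counts scaled to a common library size), with the standard deviation (SD) over 3 libraries. A log2 fold change is DPAM-1 over coronatine, followed by its standard error, so that a negative value means a lower level with DPAM-1. Total counts were 21736675, 13691358 and 14833000 for DPAM-1 with NaCl and 37279056, 17891336 and 22993345 for coronatine with NaCl. Each gene had at least 30 reads in each library, so genes silent in any library are outside these results. In whole seedlings, fewer cells of a type and less RNA per cell cannot be told apart. Principal components were computed on the genes of highest variance over all libraries, not on all genes. On the first component, which held 90.7% of the variance of those genes, the coronatine libraries with NaCl lay between 49.9 and 50.6. The DPAM-1 libraries with NaCl lay between -19.3 and -16.5, beside those of DMSO with NaCl at -21.9 to -20.9.

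Of the 14229 genes, 6026 were called, or 42.4%. Higher with DPAM-1 were 2978 genes (20.9% of all) and lower were 3048 (21.4%). The numbers were near equal, but the large differences were mostly on the lower side. A change of at least 4-fold was seen in 109 higher and 386 lower genes, and one of at least 16-fold in 1 higher and 74 lower genes. The median log2 fold change of all genes was 0.0046. Without TMM scaling, on library totals, that median moved to 0.31, with 6966 genes higher and 1522 lower. Upper-quartile scaling put it at 0.15, with 4461 higher and 2067 lower. Small differences are therefore read relative to the median of all genes.

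**Figure D1:**
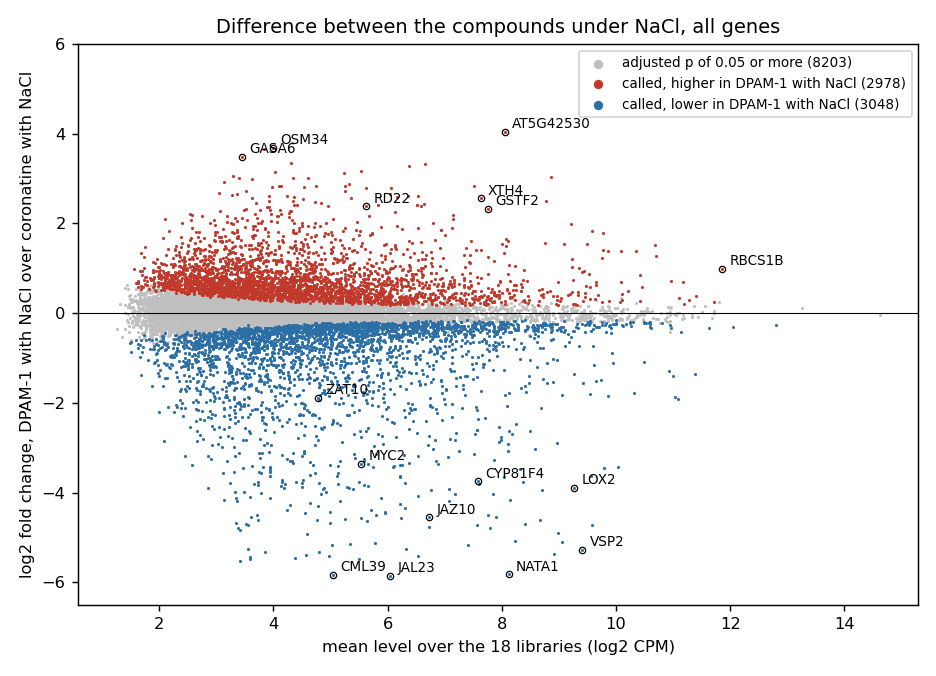
Each point is 1 gene; the horizontal axis is its mean level over the 18 libraries (log2 CPM) and the vertical axis the log2 fold change of DPAM-1 with NaCl over coronatine with NaCl. Called genes are coloured, 2978 higher and 3048 lower, and the lower genes reach -5.86 (JAL23) while the highest stands at 4.05 (AT5G42530).

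Against DMSO with NaCl, the same test called 6808 genes for coronatine (47.8%; 3390 higher or 23.8%, 3418 lower or 24.0%). For DPAM-1 it called 82 genes (0.576%; 25 higher or 0.176%, 57 lower or 0.401%). These counts share the 3 DMSO libraries. DESeq2 called 195 genes for DPAM-1, and leaving out 1 library at a time gave from 35 (with DPAM-1 replicate 1 left out; 37 with its replicate 2 left out) to 144 (without DMSO replicate 3). A fit of the compared groups alone called 47. DMSO levels are given beside some of the levels below.

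The 10 lowest genes were led by a lectin, a calcium-binding protein and an acetyltransferase gene. JAL23 (AT2G39330), a jacalin-related lectin, stood at 15.0, 26.2 and 18.1 CPM in the DPAM-1 libraries and at 1244, 1091 and 1071 CPM in the coronatine libraries. The groups lay far apart and the log2 fold change was -5.86 ± 0.23 (adjusted p = 8.94e-16), 58.1-fold lower with DPAM-1. DMSO with NaCl had 14.1 CPM ± 0.721 (SD, n = 3). CML39 (AT1G76640), a calmodulin-like calcium-binding protein, was at 10.3, 15.4 and 11.5 CPM with DPAM-1 and at 742, 660 and 698 CPM with coronatine (-5.84 ± 0.25, adjusted p = 2.71e-15). NATA1 (AT2G39030), an acetyltransferase that acts on ornithine, had 84.1 CPM ± 21.5 against 4730 CPM ± 45.9 (SD, n = 3 each), a log2 fold change of -5.82 ± 0.26. The other 7 lay between -5.53 and -5.42. They are MBP1, a myrosinase-binding protein, the cytochrome P450 genes CYP710A4 and CYP705A12, and AT1G70720, AT4G02360, AT1G73325 and AT1G66100, with no symbol in the annotation used. AT1G73325 is annotated as a Kunitz protease inhibitor and AT1G66100 as a thionin, both kinds of defence protein.

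The 10 highest genes differ less. AT5G42530, a gene with no symbol, had 876, 666 and 733 CPM with DPAM-1 and 42.4, 51.8 and 43.8 CPM with coronatine. It was 16.5-fold higher with DPAM-1 (4.05 ± 0.19, adjusted p = 1.71e-14), and DMSO with NaCl had 593 CPM ± 15.7 (SD, n = 3). OSM34 (AT4G11650), an osmotin of the pathogenesis-related proteins, had 40.2 CPM ± 3.83 against 2.99 ± 0.838 (SD, n = 3 each), a log2 fold change of 3.69 ± 0.24. GASA5 and GASA6, small cysteine-rich proteins of a gibberellin-responsive family, followed at 3.66 ± 0.18 and 3.48 ± 0.28. The rest lay between 3.12 and 3.35: AT5G16030, AT4G16260, AT5G64100, AT4G29905, the methyltransferase IGMT4 and the glutathione transferase GSTF7. Between DPAM-1 and DMSO under NaCl the adjusted p of these 10 genes ranged from 0.126 (GASA6) to 0.996 (AT5G16030).

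Jasmonate signalling genes were lower with DPAM-1. The gene lists here and below were chosen with earlier results of these data known, so their counts are descriptions. All 9 measured JAZ repressor genes of 13 on the list were called lower, with a median log2 fold change of -3.20. With upper-quartile scaling or on library totals 8 were lower. JAZ10 (AT5G13220), a repressor that jasmonate itself induces, stood at 39.4, 50.1 and 36.6 CPM with DPAM-1 and at 917, 976 and 1053 CPM with coronatine. It was 23.4-fold lower (-4.55 ± 0.19, adjusted p = 1.87e-15). DMSO with NaCl had 43.8 CPM ± 2.91 (SD, n = 3), inside the range of the DPAM-1 libraries. JAZ1 (AT1G19180) and JAZ2 (AT1G74950) were at -3.20 ± 0.11 and -3.40 ± 0.16. At the other end, JAZ11, named after its value was seen, was at -0.40 ± 0.15 (adjusted p = 0.0411).

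Among 9 measured receptor and regulator genes, 4 were lower and 0 higher (1 more had an unadjusted p under 0.05, and DESeq2 called the same number, 4). On library totals 4 were lower and 1 higher, and the list median moved from -0.31 to -0.0030. The share called was 44.4%, near the 42.4% of all genes. MYC2 (AT1G32640), the leading transcription factor of the jasmonate response, had 22.5, 24.0 and 24.9 CPM with DPAM-1 and 244, 236 and 251 CPM with coronatine. The difference was 10.3-fold (-3.36 ± 0.14, adjusted p = 3.77e-15). JAM1, a bHLH factor that opposes MYC2, stood at -3.12 ± 0.14, the adaptor NINJA at -1.57 ± 0.09 and JAM2 at -1.17 ± 0.20. The receptor gene COI1 (AT2G39940), named after its value was seen, was at 0.11 ± 0.14, with a 95% interval from -0.18 to 0.40, and was not called.

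MYC2 and JAZ1 were also lower with DPAM-1 than with DMSO under NaCl, MYC2 at -0.71 ± 0.14 (adjusted p = 0.0121) and JAZ1 at -0.51 ± 0.11 (adjusted p = 0.0209). Both calls ended when single libraries were left out. The highest adjusted p was 0.102 for MYC2 (lost without DMSO replicate 2 and without DPAM-1 replicates 1 or 2). It was 0.152 for JAZ1 (lost in 4 fits, those leaving out DMSO replicate 1 or a DPAM-1 library).

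Jasmonate synthesis genes were lower with DPAM-1 in 12 of 13 measured members, with a median of -2.40, or in 11 with upper-quartile scaling or library totals. LOX2 (AT3G45140), the lipoxygenase at the start of the pathway, had 261, 306 and 273 CPM against 3890, 4341 and 4268 CPM, 14.9-fold lower (-3.90 ± 0.17). AOS (AT5G42650), the allene oxide synthase, had 162, 181 and 125 CPM against 1926, 1968 and 1984 CPM, 12.6-fold lower (-3.65 ± 0.15, adjusted p = 1.93e-15). OPR3 (AT2G06050), which reduces the precursor OPDA, was at -3.34 ± 0.13. The allene oxide cyclase genes AOC2 and AOC4 were at -3.64 ± 0.14 and -2.40 ± 0.09; the copies AOC1, AOC2 and AOC3 are alike and may share reads. Enzymes that remove the active hormone differed by as much. Of 9 conjugation and catabolism genes 8 were lower, with a median of -3.78. JRG21 (AT3G55970), a jasmonate-inactivating oxygenase, was at -4.56 ± 0.23, CYP94B1 (AT5G63450), a jasmonoyl-isoleucine hydroxylase, at -3.91 ± 0.19 and the amidohydrolase IAR3 (AT1G51760) at -3.17 ± 0.12. The conjugating enzyme JAR1, named after its value was seen, was not called (-0.14 ± 0.10, 95% interval -0.35 to 0.06).

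Output genes showed the widest gap. Of 10 measured genes 9 were lower and 1 higher, with a median of -4.81. VSP2 (AT5G24770), a vegetative storage protein used as a jasmonate marker, had 182, 277 and 215 CPM with DPAM-1 and 8985, 8488 and 8530 CPM with coronatine. It was 38.6-fold lower (-5.27 ± 0.23, adjusted p = 5.55e-15), with 175 CPM ± 1.84 (SD, n = 3) in DMSO with NaCl. Reads of VSP1 and VSP2 may be shared. BGLU18 (AT1G52400), a beta-glucosidase, stood at -5.10 ± 0.19 and CLH1 (AT1G19670), a chlorophyllase, at -4.72 ± 0.20. The member on the higher side was RNS1 (AT2G02990), a ribonuclease of wounding and phosphate shortage, with 37.4 CPM ± 3.65 against 14.1 ± 2.66 (SD, n = 3 each; 1.41 ± 0.15). RNS1 was also above the 21.9 CPM of DMSO with NaCl (0.77 ± 0.14, adjusted p = 0.00774), a call lost without DPAM-1 replicate 1 (adjusted p = 0.0873).

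**Figure D2:**
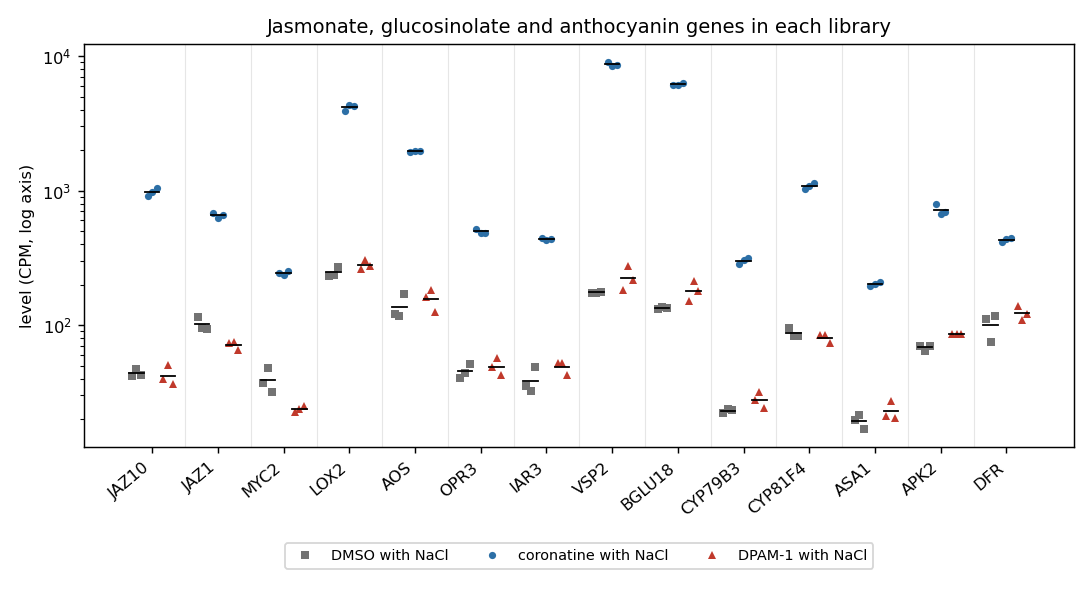
Level in each library (CPM, log axis) of 14 genes in DMSO, coronatine and DPAM-1, all with NaCl; points are libraries and bars the means of 3. In every gene shown the 3 coronatine libraries lie above the 3 DPAM-1 libraries, as in VSP2 with 8668 against 225 CPM on average.

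Defence chemistry followed the same order. ER bodies are compartments that store beta-glucosidases against herbivores, and all 13 members of that list were lower (median -2.29). BGLU22 (AT1G66280) was at -3.47 ± 0.10, BGLU21 (AT1G66270) at -2.82 ± 0.08 and NAI1 (AT2G22770), the transcription factor that ER bodies need, at -2.55 ± 0.10. BGLU21 was also slightly above DMSO with NaCl (0.35 ± 0.07, adjusted p = 0.0156). That call was lost without DMSO replicate 2 and without DPAM-1 replicates 2 or 3, at adjusted p values of up to 0.107.

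All 13 measured indole glucosinolate genes were lower (median -2.11). CYP79B3 (AT2G22330), which turns tryptophan into the oxime precursor, had 27.7, 31.7 and 24.0 CPM against 283, 306 and 313 CPM, 10.8-fold lower (-3.44 ± 0.10, adjusted p = 1.53e-17). CYP81F4 (AT4G37410), which modifies the indole ring, was at -3.74 ± 0.10 and MYB34 (AT5G60890), a regulator of the pathway, at -2.77 ± 0.10. Methyltransferase genes with IGMT names differed in sign, IGMT1 being a member of this list and IGMT4 not. IGMT1 (AT1G21100) was at -2.44 ± 0.14, while IGMT4 (AT1G21130) was at 3.14 ± 0.20, with 37.4, 38.7 and 23.4 CPM in DPAM-1 and 3.48, 3.97 and 3.90 CPM in coronatine. IGMT1 was named after its value was seen, and these copies are alike in sequence, so reads may be shared between them.

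Aliphatic glucosinolate genes did not share the direction of the indole genes. Of 12 measured, 6 were higher and 2 lower, with a median of 0.17. CYP83A1 (AT4G13770), the oxime-metabolising enzyme of this branch, had 139 CPM ± 3.32 against 53.9 ± 2.92 (SD, n = 3 each; 1.37 ± 0.10). MYB28 (AT5G61420), its main regulator, was at 1.07 ± 0.14 and MAM1 (AT5G23010), which lengthens methionine, at 0.73 ± 0.13. FMOGS-OX1 (AT1G65860), which oxidises the side chain, was on the lower side at -2.04 ± 0.12.

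Suppliers of tryptophan and sulfur were lower. Of 8 tryptophan synthesis genes 7 were lower (median -2.60). ASA1 (AT5G05730), the committing anthranilate synthase, stood at 21.2, 27.2 and 20.4 CPM against 194, 201 and 210 CPM (-3.14 ± 0.12, adjusted p = 7.08e-16), and PAT1 (AT5G17990) at -2.83 ± 0.09. Of 14 genes of sulfate assimilation and glutathione 12 were lower and 2 higher (median -1.37). The kinases APK2 (AT4G39940) and APK1 (AT2G14750), which make the sulfate donor of glucosinolates, were at -3.06 ± 0.10 and -2.67 ± 0.11, and GSH2 (AT5G27380), glutathione synthetase, at -2.03 ± 0.08. Methionine lyase, MGL (AT1G64660), was at -3.56 ± 0.18. On the higher side stood the root sulfate transporter SULTR1;2 (AT1G78000), with 106, 124 and 117 CPM against 63.8, 52.2 and 50.7 CPM (1.05 ± 0.14, adjusted p = 1.45e-06).

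Flavonoid and anthocyanin genes were lower in 13 of 16 members and higher in 2, with a median of -1.39. DFR (AT5G42800), dihydroflavonol reductase, had 138, 108 and 120 CPM against 413, 438 and 441 CPM, 3.52-fold lower (-1.82 ± 0.13, adjusted p = 5.57e-11). CHS (AT5G13930), chalcone synthase, was at -1.79 ± 0.10 and UGT79B1 (AT5G54060), an anthocyanin glycosyltransferase, at -2.07 ± 0.15. The 2 higher members act away from anthocyanin. FLS1 (AT5G08640), the flavonol synthase that competes with DFR for substrate, was at 1.02 ± 0.10. MYBL2 (AT1G71030), a repressor of anthocyanin genes named after its value was seen, was at 1.70 ± 0.21. At the entry to phenylpropanoids PAL1 (AT2G37040) was lower (-1.40 ± 0.08) and PAL2 (AT3G53260) higher (0.35 ± 0.09).

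Ascorbate and chlorophyll breakdown genes held some large differences on the lower side. Of 8 ascorbate genes 5 were lower and 1 higher (median -0.39), or 3 and 2 on library totals (median -0.091), and the higher call ended with coronatine replicate 1 or DPAM-1 replicate 2 left out. Among the lower were the dehydroascorbate reductase DHAR1 (AT1G19570), 10.9-fold lower at -3.45 ± 0.10, and VTC1 (AT2G39770), an early synthesis enzyme, at -2.17 ± 0.09. Of 7 chlorophyll breakdown genes 5 were lower and 0 higher, or 3 and 1 on library totals (5 with an unadjusted p under 0.05 and 5 by DESeq2), with PPH (AT5G13800), pheophytinase, at -2.58 ± 0.12 and PAO (AT3G44880) at -2.01 ± 0.13. Of 31 photosynthesis genes 7 were higher and 5 lower, so that 38.7% were called against 42.4% of all genes, with RBCS1B (AT5G38430), a Rubisco small subunit, at 0.98 ± 0.10 and LHCB4.2 (AT3G08940), a light-harvesting protein, at -0.38 ± 0.07. Their median was -0.015, and it was 0.29 on library totals, where 23 were higher and 0 lower. Upper-quartile scaling gave 11 higher and 3 lower, and the fit of the compared groups alone 12 lower. Their summed level was 96070 to 97564 CPM with DPAM-1 and 94702 to 98351 CPM with coronatine, ranges that overlap.

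**Figure D3:**
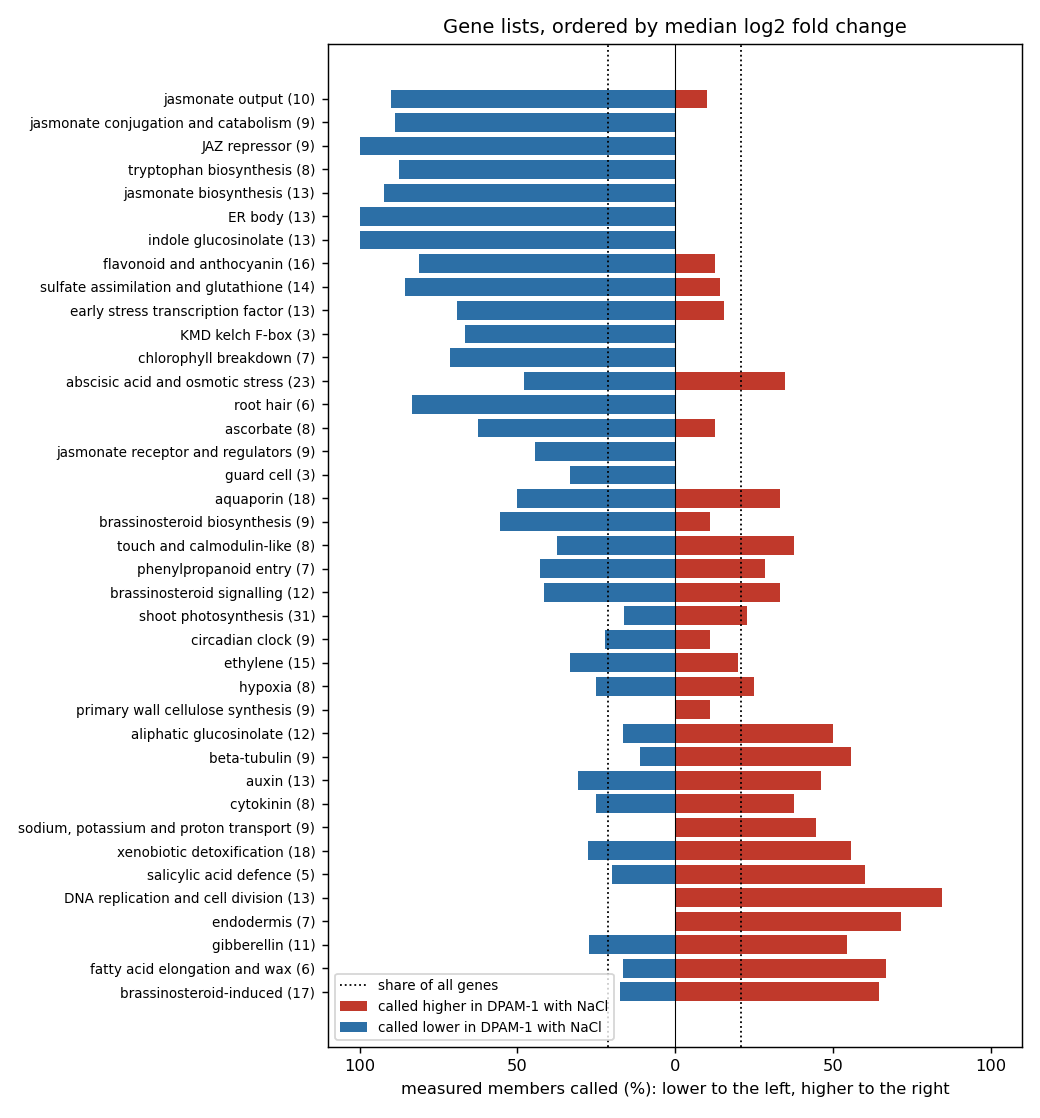
Bars give the share of each list's measured members (number in brackets) called lower (left) or higher (right) with DPAM-1, in percent; dotted lines mark 21.4% and 20.9%, the shares of all genes, and lists are ordered by median log2 fold change. The jasmonate, indole glucosinolate and tryptophan lists lie almost wholly on the lower side, while DNA replication and brassinosteroid-induced genes lie mainly on the higher side.

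Most brassinosteroid-induced genes, which serve cell expansion, were higher with DPAM-1 than with coronatine. Of 17 measured brassinosteroid-induced genes 11 were higher and 3 lower, with a median log2 fold change of 1.19. XTH4 (AT2G06850), a xyloglucan endotransglucosylase that remodels the growing wall, had 285, 300 and 296 CPM against 50.2, 50.9 and 48.3 CPM. It was 5.90-fold higher with DPAM-1 (2.56 ± 0.08, adjusted p = 4.55e-17). BEE2 (AT4G36540), a bHLH factor of brassinosteroid responses, had 16.0, 20.9 and 17.1 CPM against 1.85, 3.71 and 2.98 CPM (2.72 ± 0.20), and GASA6 (AT1G74670) 14.6, 22.6 and 22.0 CPM against 1.60, 1.95 and 1.80 CPM. For both genes all 3 DPAM-1 libraries stood above all coronatine libraries. TIP2-1 (AT3G16240), a tonoplast water channel, was at 1.55 ± 0.11 and the expansin EXPA1 (AT1G69530) at 0.51 ± 0.10.

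The 3 lower members included XTH24 (AT4G30270), with 36.5, 39.3 and 29.9 CPM against 111, 113 and 99.8 CPM (-1.61 ± 0.20, adjusted p = 5.07e-07). IAA19 (AT3G15540), an auxin-response repressor that brassinosteroids also induce, had 5.76, 6.23 and 7.48 CPM against 14.2, 10.5 and 17.9 CPM (-1.14 ± 0.19, adjusted p = 3.87e-05). XTH22 (AT5G57560), a wall enzyme whose gene also responds to touch, had 17.3, 11.6 and 31.9 CPM against 32.4, 21.5 and 24.2 CPM. These groups overlap, and the gene was not called (-0.37 ± 0.28, 95% interval -0.95 to 0.20, adjusted p = 0.302). Without DPAM-1 replicate 3 it was called lower (-0.84, adjusted p = 0.0181). In DMSO with NaCl XTH22 stood at 116, 61.8 and 48.6 CPM, above all libraries of both compounds, and both contrasts were called (DPAM-1 -1.90 ± 0.27, coronatine -1.53 ± 0.27).

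Of the same 17 brassinosteroid-induced genes, the test against DMSO with NaCl called 0 higher and 2 lower for DPAM-1, and 3 higher and 14 lower for coronatine. These comparisons share their control libraries. The list medians were -0.26 for DPAM-1 and -1.53 for coronatine. Of all genes 0.176% were called higher and 0.401% lower for DPAM-1, and 23.8% and 24.0% for coronatine. For DPAM-1, 10 of the 17 genes had an unadjusted p under 0.05 in the edgeR test, against 10% of all genes.

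Brassinosteroid synthesis and signalling genes differed in both directions. DET2 (AT2G38050), a steroid reductase of synthesis, had 23.7, 26.7 and 24.2 CPM against 84.2, 91.4 and 93.6 CPM, 3.62-fold lower (-1.85 ± 0.11, adjusted p = 1e-12). CPD (AT5G05690), a synthesis gene repressed by the hormone, was higher at 32.1 CPM ± 0.663 against 17.2 ± 1.76 (SD, n = 3 each; 0.90 ± 0.11). DWF4 (AT3G50660), the rate-limiting hydroxylase, was not called (0.19 ± 0.16, 95% interval -0.15 to 0.53, adjusted p = 0.379). In all, 1 of 9 synthesis genes was higher and 5 lower, with a median of -0.24 that turned to 0.067 on library totals, where 3 were higher and 1 lower. Upper-quartile scaling gave 2 higher and 2 lower, the compared groups alone 2 higher, and 3 were lower with coronatine replicate 3 left out. BES1 (AT1G19350), a transcription factor that carries the brassinosteroid signal, had 58.8 CPM ± 1.2 against 31.3 ± 3.9 (SD, n = 3 each; 0.90 ± 0.08, adjusted p = 3.62e-09), while its relative BEH1 (AT3G50750) was at -1.37 ± 0.19. Of 12 signalling genes 4 were higher and 5 lower, and on library totals 6 were higher and 1 lower, with 2 lower under upper-quartile scaling. The higher count was 1 with DPAM-1 replicate 1 left out, and 2 when its replicate 3 or coronatine replicates 1 or 2 were. The lower count was 3 without DPAM-1 replicate 1 or coronatine replicates 1 or 3.

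Other growth hormones gave mixed lists with clear single genes. The share called was 81.8% of gibberellin, 76.9% of auxin, 62.5% of cytokinin and 53.3% of ethylene genes. Of all genes 42.4% were called, 20.9% higher and 21.4% lower, and the higher ethylene genes lie near that share. GA3OX1 (AT1G15550), the last enzyme of gibberellin synthesis, had 19.1, 21.4 and 21.1 CPM against 3.73, 2.47 and 3.39 CPM, 6.26-fold higher (2.65 ± 0.16, adjusted p = 1.75e-12). The gibberellin receptor GID1A (AT3G05120) was lower at -0.99 ± 0.09, and 6 of 11 gibberellin genes were higher and 3 lower. Among 13 auxin genes 6 were higher and 4 lower, with GH3.3 (AT2G23170), an auxin-conjugating enzyme, at 2.00 ± 0.18 and IAA7 (AT3G23050), an auxin-response repressor, at 1.01 ± 0.07. Of 8 cytokinin genes 3 were higher and 2 lower, or 5 and 0 with upper-quartile scaling or library totals, and 5 were higher in the fit of the compared groups alone. Among the higher were the feedback regulators ARR7 (AT1G19050) at 1.29 ± 0.14 and ARR16 (AT2G40670) at 0.89 ± 0.17. The lower count was 0 or 1 in the 5 fits that left out coronatine replicates 1 or 3 or any DPAM-1 replicate. Of 15 ethylene genes 3 were higher and 5 lower, or 6 and 2 on library totals and 6 and 3 with upper-quartile scaling, with EBF1 (AT2G25490), which degrades EIN3, at -1.27 ± 0.18. The fit of the compared groups alone gave 5 higher. The lower count was 3 without coronatine replicate 1 and without DPAM-1 replicate 2.

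KMD proteins are F-box subunits that target phenylpropanoid enzymes and cytokinin regulators for degradation, and of 3 measured genes KMD3 (AT2G44130) rose above DMSO with NaCl for both compounds. It had 24.4, 23.3 and 18.2 CPM with DPAM-1, 36.0, 41.1 and 32.7 CPM with coronatine and 5.66, 6.17 and 5.97 CPM with DMSO. The compounds differed at -0.73 ± 0.12 (adjusted p = 2.52e-05). Against DMSO, KMD3 stood at 1.90 ± 0.13 for DPAM-1 (adjusted p = 1.2e-08) and at 2.63 ± 0.13 for coronatine (adjusted p = 4.15e-14). KMD2 (AT1G15670) was at -1.14 ± 0.12 between the compounds.

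Most cell division genes were higher, by small amounts. Of 13 DNA replication and cell division genes 11 were higher and 0 lower (11 had an unadjusted p under 0.05 and 11 were called by DESeq2), with a median of 0.52. CYCD3;1 (AT4G34160), a cyclin that admits cells to division, had 12.5 CPM ± 0.397 against 7.56 ± 0.488 (SD, n = 3 each; 0.74 ± 0.13, adjusted p = 4.81e-05). TSO2 (AT3G27060) and RNR1 (AT2G21790), subunits of ribonucleotide reductase, were at 0.62 ± 0.08 and 0.68 ± 0.10. Of 9 beta-tubulin genes 5 were higher and 1 lower, or 8 and 0 on library totals. The lower call also ended with upper-quartile scaling and with DPAM-1 replicate 3 left out. The higher genes included TUB1 (AT1G75780) at 1.75 ± 0.10 and TUB5 (AT1G20010) at 1.19 ± 0.08. Among 9 genes of primary wall cellulose synthesis 1 was higher, a call that ended in 5 of the 6 fits with 1 library left out, while 5 were higher with upper-quartile scaling or library totals. Of 6 elongation and wax genes 4 were higher and 1 lower, KCR1 (AT1G67730) at 1.21 ± 0.09 and CER3 (AT5G57800) at -1.04 ± 0.09.

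**Figure D4:**
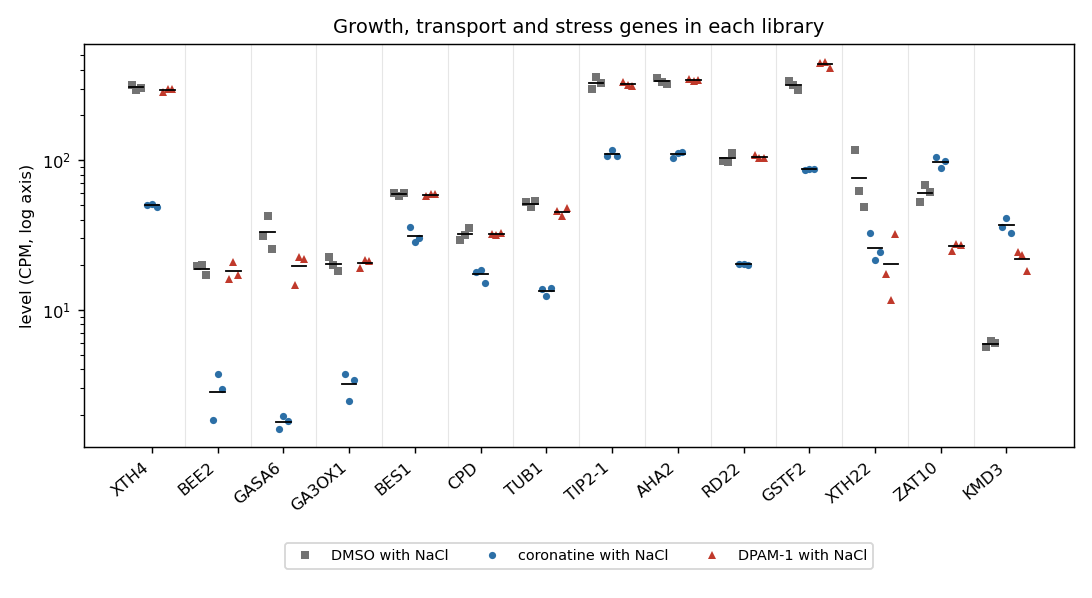
Level in each library (CPM, log axis) of 14 growth, transport and stress genes in DMSO, coronatine and DPAM-1, all with NaCl; points are libraries and bars the means of 3. From XTH4 to GSTF2 the coronatine libraries lie lowest, in XTH22 both compounds lie below DMSO, in ZAT10 DPAM-1 is lowest at 26.5 CPM on average, and in KMD3 both compounds lie above DMSO.

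Genes of the salt response itself split. Of 23 measured abscisic acid and osmotic stress genes 8 were higher and 11 lower with DPAM-1, with a median of -0.54. GOLS1 (AT2G47180), which makes galactinol for osmoprotection, had 4.23, 6.23 and 5.77 CPM against 125, 132 and 130 CPM, 24.2-fold lower (-4.60 ± 0.18, adjusted p = 1.14e-15). RD26 (AT4G27410), a NAC transcription factor of dehydration, was at -2.44 ± 0.23 and KIN2 (AT5G15970), a cold and abscisic acid induced gene whose reads may be shared with KIN1, at -1.76 ± 0.11. RD22 (AT5G25610), a dehydration gene under MYC2, was on the higher side with 109, 104 and 103 CPM against 20.3, 20.4 and 19.9 CPM (2.38 ± 0.14, adjusted p = 1.63e-12). RD29A (AT5G52310), a much used marker of drought and cold, had 203, 133 and 172 CPM against 91.7, 79.9 and 70.7 CPM (1.07 ± 0.20, adjusted p = 1.35e-04). The proline synthesis gene P5CS1 (AT2G39800) was not called (-0.54 ± 0.24, 95% interval -1.04 to -0.04, adjusted p = 0.0757) but was in a fit of the compared groups alone (adjusted p = 4.48e-04).

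Ion transport genes were higher in 4 of 9 measured members and lower in 0 (DESeq2 also called 4). The share called was 44.4%, near the 42.4% of all genes. AHA2 (AT4G30190), the main proton pump of the root plasma membrane, had 349, 338 and 340 CPM against 103, 111 and 113 CPM, 3.14-fold higher (1.65 ± 0.13, adjusted p = 1.96e-10). NHX2 (AT3G05030), a vacuolar cation antiporter, was at 1.16 ± 0.20, CBL10 (AT4G33000), a calcium sensor of salt tolerance, at 0.60 ± 0.16 and the vacuolar proton pump AVP1 (AT1G15690) at 0.48 ± 0.10. SOS1 (AT2G01980), the sodium exporter of the plasma membrane, had 8.44 CPM ± 0.985 against 9.59 ± 1.39 (SD, n = 3 each). The groups overlap, and it was not called (-0.18 ± 0.18, 95% interval -0.55 to 0.20, and 0.13 on library totals).

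Aquaporins, the water channels, split in both directions. The tonoplast genes TIP2;2 (AT4G17340) and TIP2-1 were at 2.62 ± 0.11 and 1.55 ± 0.11. The plasma membrane genes PIP2;3 (AT2G37180), PIP1;4 (AT4G00430) and PIP1;1 (AT3G61430) were at -1.49 ± 0.12, -1.26 ± 0.07 and -1.05 ± 0.08. Over the 18 genes 6 were higher and 9 lower, with a median of -0.26, or 0.044 on library totals. Both tonoplast and plasma membrane groups held exceptions, since TIP1;1 and TIP1;2 were lower and PIP1;2, PIP1;3 and PIP2;2 higher; these 5 were named after their values were seen.

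Early stress transcription factors were mostly lower with DPAM-1, 9 of 13 against 2 higher, with a median of -1.16. NAC055 (AT3G15500) and NAC019 (AT1G52890), which act under MYC2, were at -4.20 ± 0.17 and -3.82 ± 0.31, and WRKY40 (AT1G80840), a defence regulator, at -2.12 ± 0.17. ZAT10 (AT1G27730), a zinc-finger repressor of abiotic stress, had 24.9, 27.6 and 26.9 CPM with DPAM-1, 105, 88.1 and 99.2 CPM with coronatine and 52.6, 67.9 and 61.3 CPM with DMSO. Its groups did not overlap, and DPAM-1 lay below coronatine (-1.89 ± 0.13, adjusted p = 3.3e-11) and below DMSO (-1.19 ± 0.13, adjusted p = 4.73e-05). Higher with DPAM-1 was WRKY25 (AT2G30250), a stress regulator, at 0.69 ± 0.16. Of 8 touch and calmodulin-like genes 3 were higher and 3 lower, TCH3 (AT2G41100) at 74.6 CPM ± 12.6 against 40.1 ± 7.05 (SD, n = 3 each; 0.89 ± 0.18) and CML9 (AT3G51920) at 1.23 ± 0.11.

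Detoxification genes were higher in 10 of 18 members and lower in 5. GSTF2 (AT4G02520), a glutathione transferase, had 446, 449 and 413 CPM against 86.3, 87.7 and 86.5 CPM, 5.02-fold higher (2.33 ± 0.09, adjusted p = 4.7e-16). It also stood above DMSO with NaCl (0.47 ± 0.08, adjusted p = 0.00608), a call lost without DPAM-1 replicate 1 or 2 (highest adjusted p 0.0517). GSTF7 (AT1G02920) was at 3.12 ± 0.14 and its near copy GSTF6 (AT1G02930), named after its value was seen, at -1.85 ± 0.09, so that the split of reads between them bears on both values. CYP81D11 (AT3G28740), a P450 of xenobiotic and jasmonate responses, was at -3.86 ± 0.19. Among 5 salicylic acid defence genes 3 were higher, PAD4 (AT3G52430), a defence regulator, at 1.12 ± 0.21, and ICS1 (AT1G74710), which makes the hormone's precursor, at 1.04 ± 0.23, while the transporter EDS5 (AT4G39030) was lower at -2.81 ± 0.16.

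Marker lists of cell types moved by small amounts between the groups. Of 6 root hair genes 5 were lower with DPAM-1, and their summed level was 96.4 to 101 CPM with DPAM-1 against 141 to 147 CPM with coronatine and 108 to 139 CPM with DMSO. The count was 3 in 5 of the 6 fits with 1 library left out and with upper-quartile scaling, and 2 on library totals. Of 7 endodermis genes 5 were higher, summing to 124 to 131 CPM against 80.1 to 104 CPM, with the Casparian strip gene CASP1 (AT2G36100) at 0.58 ± 0.15. Of 3 guard cell genes 1 was lower, or 33.3% called against 42.4% of all genes. The measured markers could not be at 0, since the table holds only genes read in each library. CASP4 and CASP5 of the endodermis list and SLAC1 and KAT1 of the guard cell list were not in the table, so their levels are unknown. The part of cell numbers in the results above was not tested.

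Most genes that differed between the compounds without NaCl also differed with it, in the same direction. Without NaCl, 4961 genes were called between DPAM-1 and coronatine (34.9%; 2475 higher or 17.4%, 2486 lower or 17.5%). Of these 3808 were also called under NaCl, or 76.8% of the calls without NaCl and 63.2% of those with it, and 3775 had the same direction. Over the 14229 genes the log2 fold changes from these separate libraries had a Pearson r of 0.90 and a Spearman rho of 0.75, as a description across genes. The test of the difference itself called 575 genes (4.04%), with 250 shifted up with NaCl (1.76%) and 325 down (2.28%). Harvest time without NaCl is not in the labels, so its part in these shifts cannot be told apart. That count was 333 without coronatine replicate 1 of the NaCl group. The absolute difference was larger under NaCl in 425 of the 575. The 9 JAZ repressors had 0 such calls by edgeR and 0 by DESeq2, with 2 at an unadjusted p under 0.05, and the 13 ER body genes 0, 0 and 1. With 4.04% of all genes called, a count of 0 in lists this short lies near the share of all genes. Related lists had calls, 1 among 10 jasmonate output genes and 2 among 13 indole glucosinolate genes.

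Genes whose direction turned numbered 33, called with opposite signs with and without NaCl. GH3.3 had 25.9, 19.3 and 22.4 CPM with DPAM-1 and NaCl against 5.90, 5.40 and 5.55 CPM with coronatine and NaCl. Without NaCl it had 4.80, 5.72 and 4.15 CPM with DPAM-1 against 12.5, 12.2 and 14.3 CPM with coronatine. The log2 fold change turned from -1.41 ± 0.19 to 2.00 ± 0.18, and the shift of 3.41 ± 0.26 was called (adjusted p = 7.11e-08). EXO70H2 (AT2G39380), an exocyst subunit, turned from -0.61 to 1.38 (shift 1.98 ± 0.27). PFA-DSP1 (AT1G05000), a phosphatase, turned the other way, from 1.31 to -0.64 (shift -1.95 ± 0.30), although its call under NaCl was lost without coronatine replicate 1 or DPAM-1 replicate 1.

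Some growth and touch genes shifted as well. BEE2 widened from 1.19 ± 0.18 to 2.72 ± 0.20 (shift 1.53 ± 0.27, adjusted p = 0.00162), and GA3OX1 from 1.18 ± 0.15 to 2.65 ± 0.16 (shift 1.47 ± 0.22, adjusted p = 5.7e-04). TCH3 narrowed from 2.27 ± 0.19 to 0.89 ± 0.18 (shift -1.37 ± 0.26, adjusted p = 0.0035). XTH22 had 42.4, 44.6 and 42.3 CPM with DPAM-1 and 21.0, 15.3 and 16.0 CPM with coronatine when NaCl was absent, groups that do not overlap. Its difference of 1.29 ± 0.28 shifted by -1.67 ± 0.39 under NaCl (adjusted p = 0.0154), a call lost without coronatine replicate 1 of the NaCl group and with robust estimation of the spread, with a highest adjusted p of 0.0938 over the settings tried. SULTR1;2 moved from -0.33 ± 0.14, not called, to 1.05 ± 0.14 (shift 1.38 ± 0.20). Of the 17 brassinosteroid-induced genes, 8 had a called shift, against 4.04% of all genes. The list was chosen with earlier results of these data known, so this count describes the list and tests nothing. The shifts went both ways, among them BEE2, EXPA1 and KCS1 up and XTH22, XTH24 and IAA19 down.

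**Figure D5:**
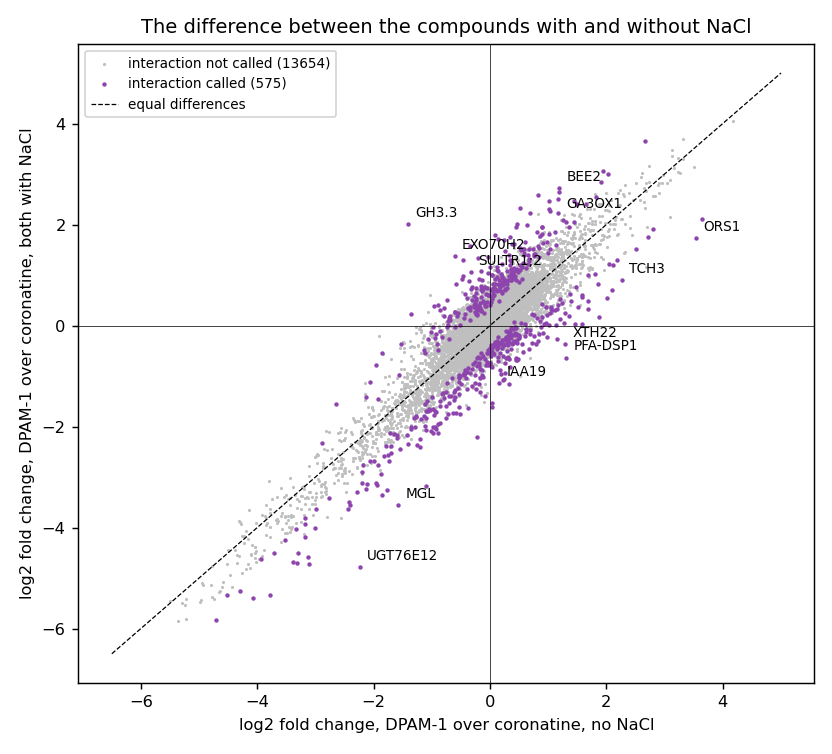
Each point is 1 gene; the horizontal axis is the log2 fold change of DPAM-1 over coronatine without NaCl and the vertical axis the same with NaCl, and the dashed line marks equal values. Most genes lie along the line, and the 575 genes with a called shift are purple, with GH3.3 at -1.41 and 2.00.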

How the data were processed

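RNA from whole Arabidopsis seedlings was sequenced as Lasy-Seq libraries, per the labels' protocols. The authors deposited raw read counts per gene, made with HISAT2 and featureCounts on TAIR10 after Trimmomatic, per the submitters' processing notes, which also name bcl2fastq and DESeq2 and give no versions. The authors also deposited a normalized signal table, the same counts divided by 1 factor per library, which was compared with the counts but not tested.

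The 18 libraries, 3 for each of 6 groups, were fitted together with edgeR 4.0.16 (R 4.3.3; TMM factors, quasi-likelihood test, Benjamini-Hochberg adjustment over 14229 genes). The filter on low counts removed 0 genes, and calls had an adjusted p under 0.05. Standard errors came from the fold change and its F statistic. The biological coefficient of variation was 10.4%. The fit was also run on simulated counts, in which a small set of genes changed equally in both directions from a common baseline. In these data many more genes differ, so that run cannot test the scaling.

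Genes named in the text are the 10 called genes at each end of the fold change, kept to those whose groups do not overlap and whose average log2 CPM is 2 or more, up to 4 called genes of smallest p in each list's more frequent direction and 1 in the other, the 5 highest and 5 lowest of the NaCl interaction, and 22 markers. Others are said to have been named after their values were seen. The members and the lists were chosen with earlier results of these data known. Gene symbols came from TAIR10.1, matched by code, so no coordinates or sequences are given. Close copies may share reads.

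Deviations of same-numbered libraries were only weakly correlated, at 0.0356, 0.0357 and 0.0091 for numbers 1, 2 and 3. Differently numbered libraries lay lower, from -0.0318 to 0.00126. All values are small, so the numbers are not used as pairs, and a replicate block was tried as an alternative. The alternatives were other scalings, DESeq2 1.42.0, a fit of the compared groups alone, a fold threshold, a replicate block, robust spread and leaving out each library.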

Additional observations from a re-analysis of the deposited data

Results flagged for a closer look

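In 37 named genes the difference between DPAM-1 and coronatine changed with NaCl by the interaction test of edgeR (adjusted p under 0.05), and the values below are that shift in log2 fold change, with NaCl minus without. Shifts down, toward a lower level with DPAM-1 under NaCl, were seen in the glycosyltransferase UGT76E12 (-2.55), the aldo-keto reductase ChlAKR (-2.09), methionine lyase MGL (-1.98), PFA-DSP1 (-1.95), ORS1, annotated as an ORGAN SIZE-like protein, (-1.82), XTH22 (-1.67), TCH3 (-1.37), IAA19 (-1.30), CML39 (-1.12) and XTH24 (-1.07). Smaller shifts down were seen in the aquaporins PIP1;4 (-1.02), PIP1;1 (-0.51) and PIP2;7 (-0.39), in NAC055 (-1.02), EDS1 (-0.92), PPH (-0.75), PAO (-0.72), KMD3 (-0.68), DET2 (-0.67) and VTC1 (-0.56).

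Shifts up were seen in GH3.3 (3.41), EXO70H2 (1.98), RTFL16 (1.93), AT2G41730 (1.82), AT5G38700 (1.76), BEE2 (1.53), GA3OX1 (1.47), SULTR1;2 (1.38), NHX2 (1.03), GASA5 (0.99) and KCS1 (0.97). Smaller shifts up were seen in EXPA1 (0.75), the flavonoid glycosyltransferase gene AT4G14090 (0.71), CYP83A1 (0.61), GID1A (0.58), BES1 (0.46) and FBA1 (0.36). Of the 37 calls, 23 passed in each of the 22 settings tried. The calls of CML39, NHX2, FBA1 and XTH24 were lost in 13, 11, 9 and 8 settings.

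MGL stood at 14.0, 22.0 and 14.0 CPM with DPAM-1 and at 56.6, 42.8 and 50.6 CPM with coronatine when NaCl was absent, and the gap was wider under NaCl.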

How the results depend on the processing

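Of 3117 values of named genes under the alternatives, 3052 kept direction and side of the threshold, 58 lost the call, 3 gained it and 4 turned sign. The 4 turned on library totals, to 0.0230 for DWF5, 0.0673 for DWF1, 0.101 for TUB3 and 0.127 for SOS1; dropping the scaling factors moves the median of all genes by construction. On library totals 6966 genes were higher and 1522 lower. Asking also for a log2 fold change of at least 1 left 1589 of the 6026 genes (643 higher, 946 lower), 149 of the interaction, 1339 without NaCl, 34 between DPAM-1 and DMSO with NaCl and 1656 between coronatine and DMSO with NaCl. Between DPAM-1 and DMSO, DESeq2 called 195 genes, the compared groups alone 47, and leaving out 1 library from 35 to 144. The interaction gave from 333 to 754 genes with 1 library left out and 818 by DESeq2. With a replicate block the counts were 6001, 603, 4941, 92 and 6794 in the order main comparison, interaction, without NaCl, DPAM-1 against DMSO and coronatine against DMSO; same-numbered libraries are not shown to be pairs, and for the main comparison 2974 were higher and 3027 lower. The causes of these moves other than the scaling were not tested. Genes under 30 reads in any library are outside all counts, and small differences lie within what scaling can move.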

Other observations

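Gene families defined by words in the product names of the annotation, chosen after values were seen, gave further counts for DPAM-1 against coronatine under NaCl. Of 38 histone genes, the proteins that package DNA, 25 were higher and 2 lower with DPAM-1 (median log2 fold change 0.47, and 0.78 on library totals). Of 42 genes annotated with the proteasome, the complex that degrades tagged proteins, 1 was higher and 27 lower (median -0.31), but on library totals 7 were higher and 10 lower with a median of -0.01. Of 40 peroxidase genes 23 were higher and 11 lower (median 0.57), of 34 arabinogalactan protein genes of the cell surface 21 and 7 (median 0.50), and of 79 receptor-like kinase genes 25 and 5 (median 0.27). Lower members made up 27.5% of the peroxidase and 20.6% of the arabinogalactan genes, so both moved in each direction. Of 17 jacalin lectin genes 3 were higher and 11 lower (median -0.78). Cytosolic ribosomal protein genes turned with the scaling, with 24 of 320 higher and 65 lower (median -0.07), against 213 and 4 on library totals. Among all 14229 genes 20.9% were higher and 21.4% lower.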
